A study of Bos taurus with 22 samples.

Results

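One common contrast between L-RFI and H-RFI steers was estimated in the RNA of bovine subcutaneous backfat, with breed as a blocking factor. RFIfat is residual feed intake adjusted for backfat thickness, the feed a steer ate above or below what its growth, size and fatness predict, so that L-RFI steers ate less than predicted and H-RFI steers ate more. All 22 of the 22 libraries entered the contrast, 1 per steer. They came from 4 H-RFI and 4 L-RFI Angus (ANG) steers, 3 and 3 Charolais (CHAR) steers, and 4 and 4 steers of the Kinsella composite (KC), which the labels describe as a Hereford x Angus crossbred. RFIfat averaged 1.12 ± 0.469 kg (SD, n = 11) in the H-RFI steers, from 0.54 to 2.03 kg, and -1.12 ± 0.307 kg (SD, n = 11) in the L-RFI steers, from -1.77 to -0.75 kg. All steers were raised at 1 ranch on the same barley-based finishing diet, and their backfat was taken after slaughter. They were the extremes of each breed whose RNA passed the quality limit, so steers of middling RFIfat are not represented, and the birth year of each steer, which the labels do not give, was not tested. The contrast covered 13606 genes with CPM (counts scaled to library size) above 1 in at least 11 steers, of 24616 in the count table.

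Subcutaneous fat stores energy as triacylglycerol in adipocytes, which take up fatty acids from blood lipoproteins and, in cattle, make most of their new fatty acids from acetate. SREBF1 is the transcription factor that turns on the genes of fatty acid and sterol synthesis, and insulin raises its activity. Beside adipocytes the tissue holds progenitor cells, blood vessels, nerves, macrophages and mast cells, all of which add to the RNA of a ground sample.

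The libraries held between 8033008 and 12426133 counts on genes, and 3 counts corresponded to 0.241 to 0.373 CPM. The share of uniquely aligned reads on genes ranged from 37.2% to 41.5% in the H-RFI libraries and from 34.3% to 42.5% in the L-RFI libraries (exact permutation test within breeds, 2-sided, p = 0.0423). It was lower in every L-RFI than in every H-RFI library of KC. In 6 libraries, 2 of H-RFI and 4 of L-RFI steers, between 0.303% and 0.512% of uniquely aligned reads were ambiguous between overlapping genes, against 0.938% to 2.16% in the other 16 libraries. The parts of both shares in the results were not tested beyond fits that held each as a covariate. The labels call the cell type adipocytes, but the RNA was of whole tissue, and no adipocyte marker could be looked up by name here. The files name genes by Ensembl identifier, and a name could be attached only to 242 identifiers that the study lists as differing between RFI groups within a breed, of which 232 passed the filter. Every gene named here was therefore chosen by the study in some of these same steers, and its direction in that breed is not independent evidence. In bulk tissue, fewer cells of a type and less RNA per cell cannot be told apart.

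The H-RFI libraries were spread in direction. The first principal component of the breed-centred levels held 15.9% of the variance and separated the groups in part, with H-RFI steers from -36.2 to 13.2 and L-RFI steers from -1.46 to 34.8. The largest value of an H-RFI steer, 13.2, belonged to the ANG steer F28. The CHAR H-RFI steers F36 and F43 lay at 5.99 and 2.52, above the CHAR L-RFI steer F33 at 0.0065. At the other end, the ANG H-RFI steer F32 lay at -32.6, F48 of CHAR at -23.9, and F7 and F8 of KC at -36.2 and -25.2. F28 and F8 both had the low ambiguous read share. The results are given with F28 and, where its absence changes a call, without it.

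No gene passed an FDR below 0.1 in the pooled contrast by edgeR's quasi-likelihood test (0.0% of 13606 genes). The smallest adjusted p was 0.133, shared by 113 genes, and 540 genes had an FDR below 0.2. At an unadjusted p under 0.05 there were 1098 genes lower in L-RFI steers (8.07% of those tested) and 957 higher (7.03%). The differences were small: the median absolute log2FC was 0.11 with a median SE of 0.11, and 95% of genes lay within an absolute log2FC of 0.45. The large differences leaned to one side, with 45 genes at a log2FC of -1 or below and 17 at 1 or above. The likelihood ratio test of edgeR, which does not carry the uncertainty of each gene's dispersion into the p-value, called 226 genes at an FDR below 0.1, 160 lower (1.18%) and 66 higher (0.485%) in L-RFI steers. DESeq2 called 448, 270 lower (1.98%) and 178 higher (1.31%), whereas limma voom called 0, with 2081 genes at an unadjusted p under 0.05.

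**Figure D1:**
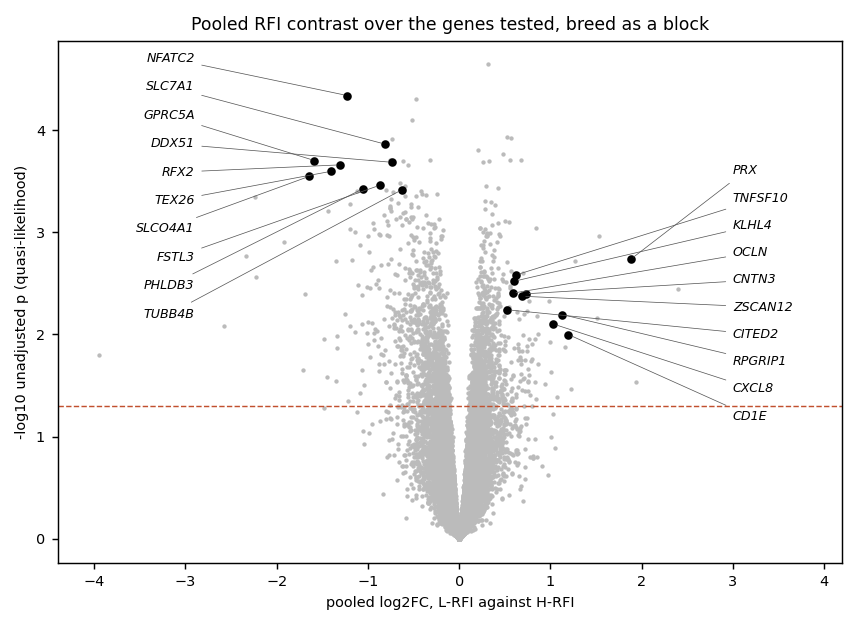
Each grey point is 1 of 13606 genes, placed by its pooled log2FC of L-RFI against H-RFI steers and by -log10 of its unadjusted p, with a dashed line at the unadjusted limit of 0.05 and the 10 named genes first in order in each direction in black. The labelled genes on the left reach higher than those on the right, and PRX lies farthest to the right among the labelled genes.

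The named gene with the smallest p was NFATC2, a transcription factor that calcineurin activates on a calcium signal. Its level was 9.46, 27.3 and 58.7 CPM (lowest, median and highest) in H-RFI steers and 5.97, 8.54 and 27.3 CPM in L-RFI steers. The ranges overlapped, yet 10 of 11 L-RFI steers lay below the H-RFI median. The pooled log2FC was -1.23 ± 0.24 (SE), and the value was -1.53 in KC, -0.96 in ANG and -1.15 in CHAR. The study called NFATC2 in KC. In the 14 ANG and CHAR steers, which that call did not use, the log2FC was -1.04 ± 0.26 (SE). Its adjusted p there was 0.998 by the quasi-likelihood test. The pooled p that put NFATC2 first used these steers as well, so their value is no independent evidence.

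SLC7A1, the carrier of arginine and lysine into cells, ranged from 22.7 to 74.1 CPM with a median of 47.3 in H-RFI steers and from 16.1 to 42.2 CPM with a median of 25.5 in L-RFI steers. All 11 L-RFI steers lay below the H-RFI median, and the log2FC was -0.81 ± 0.18 (SE). GPRC5A, an orphan receptor first known as induced by retinoic acid, had medians of 14.5 and 4.64 CPM and a log2FC of -1.59 ± 0.36 (SE). Its values were close in the breeds, -1.87 in ANG, -1.49 in CHAR and -1.40 in KC. SLCO4A1, a carrier of organic anions that include thyroid hormones, spanned 3.86 to 52.6 CPM with a median of 12.1 in H-RFI steers and 2.06 to 8.19 CPM with a median of 5.97 in L-RFI steers. Its log2FC of -1.64 ± 0.38 (SE) held the steer F32 at 52.6 CPM, and without single steers it ran from -1.78 to -1.10.

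FSTL3, a secreted protein that binds activin and myostatin, had medians of 31.3 CPM in H-RFI and 13.5 CPM in L-RFI steers with a log2FC of -0.87 ± 0.21 (SE). RFX2, a transcription factor of genes for cilia, had medians of 45.6 and 19.1 CPM and a log2FC of -1.30 ± 0.30 (SE). TUBB4B, a beta-tubulin of the microtubules, was abundant and differed less, with medians of 120 and 73.6 CPM and a log2FC of -0.62 ± 0.15 (SE). TUBB4B shares its position with FAM166A in the reference, and whether the counting used strand is not stated. The other lower genes by this rule were DDX51, described with its group, PHLDB3 (log2FC -1.05) and TEX26 (-1.41), which lay at 0.109 to 7.72 CPM over all steers. Each of these 10 genes had an adjusted p of 0.133 by the quasi-likelihood test, and each was past an FDR of 0.1 by the likelihood ratio test.

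Among the genes higher in L-RFI steers, TNFSF10, the death ligand TRAIL that interferons induce, ranged from 19.3 to 49.9 CPM with a median of 37.0 in H-RFI steers and from 24.4 to 93.9 CPM with a median of 48.7 in L-RFI steers. Its log2FC was 0.62 ± 0.18 (SE) with an adjusted p of 0.173, and it was 0.14 in ANG, 0.65 in CHAR and 1.09 in KC. CITED2, a co-regulator that competes with hypoxia-inducible factor for p300, had a median of 109 CPM in H-RFI and 172 CPM in L-RFI steers. All 11 L-RFI steers lay above the H-RFI median, and the log2FC was 0.53 ± 0.17 (SE, adjusted p = 0.195). OCLN, a protein of tight junctions, had a log2FC of 0.59 ± 0.18 (SE), and CNTN3, an adhesion protein of the contactin family, one of 0.73 ± 0.23 (SE). CXCL8, the chemokine that draws neutrophils, lay at 0.608 to 1.73 CPM in H-RFI and 0.722 to 6.57 CPM in L-RFI steers, and its log2FC of 1.03 ± 0.35 (SE) was 1.99 in KC against 0.41 in ANG and 0.53 in CHAR. The remaining higher genes were KLHL4 (log2FC 0.61), ZSCAN12 (0.69), CD1E (1.196), which presents lipids to T cells, PRX, described with the markers, and RPGRIP1 (1.13). RPGRIP1 rested on 0 to 16 counts a library, at a median of 0.482 CPM in H-RFI and 1.10 CPM in L-RFI steers.

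The 20 genes differed in how far each breed carried them. The ranges of the 2 RFI groups were apart in KC for 17 of the 20, in CHAR for 6 and in ANG for 2, where 10.9%, 10.2% and 2.9% of all genes tested had ranges apart. Since the same levels chose the 20 genes, these counts describe them and test nothing. CHAR had 3 steers in each RFI group against 4 in ANG and KC, and ranges of fewer steers come apart more readily by chance. The CHAR counts and shares therefore cannot be set against those of the other breeds. For 9 of the 10 higher genes, all but PRX, the largest log2FC of the breeds was that of KC. The study called these 9 in KC and PRX in CHAR, so this is not independent of that choice. KC had the largest absolute log2FC of the breeds for 49.7% of all genes. In the ANG and CHAR steers the 9 were also higher, with unadjusted p from 0.0872 to 0.254 by the quasi-likelihood test. The pooled p that chose the 9 used these steers as well, so their direction there is no independent evidence. Over all genes, 2 separated the groups in every breed in the same direction (0.0147%), and neither carries a name in the sources used here. ENSBTAG00000010367 lay at 12.9 to 21.6 CPM in H-RFI and 19.4 to 28.2 CPM in L-RFI steers with a log2FC of 0.32 ± 0.072 (SE), and ENSBTAG00000016988 had a log2FC of -0.18 ± 0.047 (SE). Both were chosen after their values were seen.

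**Figure D2:**
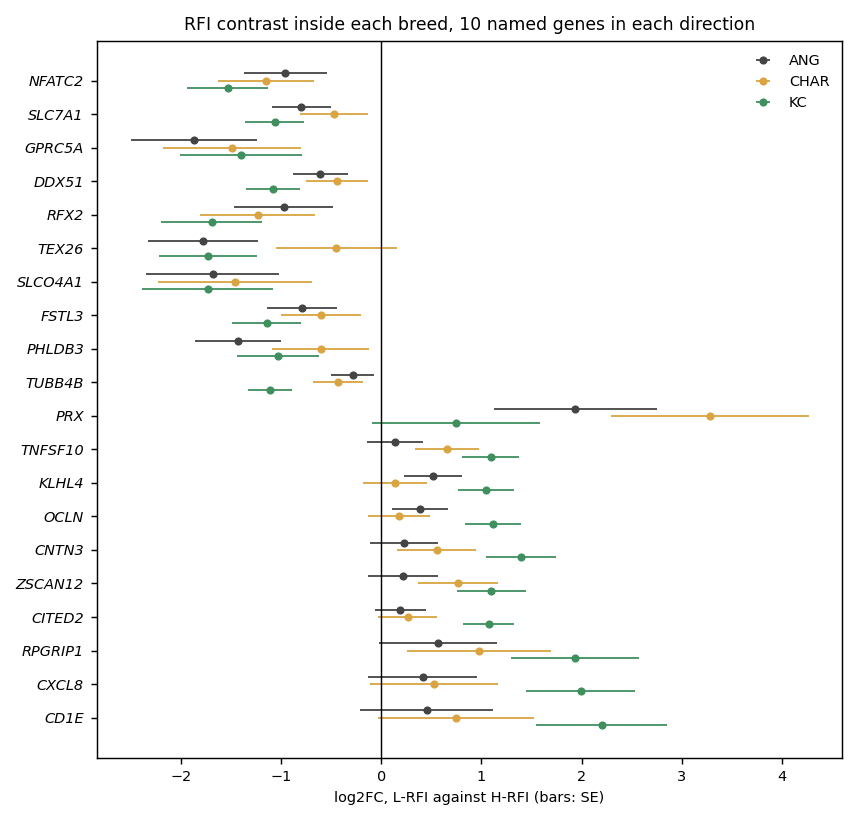
Points give the log2FC of L-RFI against H-RFI steers inside ANG, CHAR and KC for the first 10 named genes in each direction, and bars give its SE. The lower genes lie left of 0 in all breeds, while most higher genes lie farthest to the right in KC and PRX in CHAR.

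Genes listed under ribosome biogenesis lay on one side. Of 40 genes on a list of ribosome biogenesis, 6 could be named and tested, and all 6 were lower in L-RFI steers at an unadjusted p under 0.05, where 8.07% of all genes were, with a median log2FC of -0.75. The median was 0.0016 over all genes and -0.41 over the 54 members of any list that could be tested, all of them called by the study in some breed. Of those 54 members, 20 were lower at an unadjusted p under 0.05. None of the 6 was past an FDR of 0.1. The study had called all 6 in KC. In the 14 steers of the other breeds all 6 were again lower, with a median log2FC of -0.53. At an unadjusted p under 0.05 there were 3 of them, DDX51, URB2 and PPRC1. The share lower at that limit was 3.01% of all genes and 23.7% of the genes that the study called lower in KC. DDX51, an RNA helicase that helps to mature the large ribosomal subunit, lay at 9.96, 16.03 and 30.6 CPM (lowest, median and highest) in H-RFI and 7.79, 11.03 and 13.9 CPM in L-RFI steers. The spread sat with the H-RFI steers: F32 of ANG (28.5 CPM), F7 and F8 of KC (30.6 and 27.9 CPM) and F48 of CHAR (19.9 CPM) were high, while F28 of ANG was at 9.96 CPM. URB2, a factor of large-subunit assembly, was at 32.04 ± 14.9 CPM (SD, n = 11) in H-RFI and 18.3 ± 2.78 CPM in L-RFI steers, with a log2FC of -0.76 ± 0.19 (SE). PPRC1, on the list as a co-activator rather than an assembly factor, is related to PGC-1 and answers growth signals. Its level was 57.2 ± 26.3 and 32.6 ± 6.15 CPM (SD, n = 11), with a log2FC of -0.76 ± 0.19 (SE). PPAN, RRP9 and UTP4, which act on ribosomal RNA precursors, had log2FCs of -0.86, -0.71 and -0.53. The value of each of the 6 was largest in KC, from -1.01 to -1.22, and smaller in ANG, from -0.098 to -0.61, and in CHAR, from -0.33 to -0.70.

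**Figure D3:**
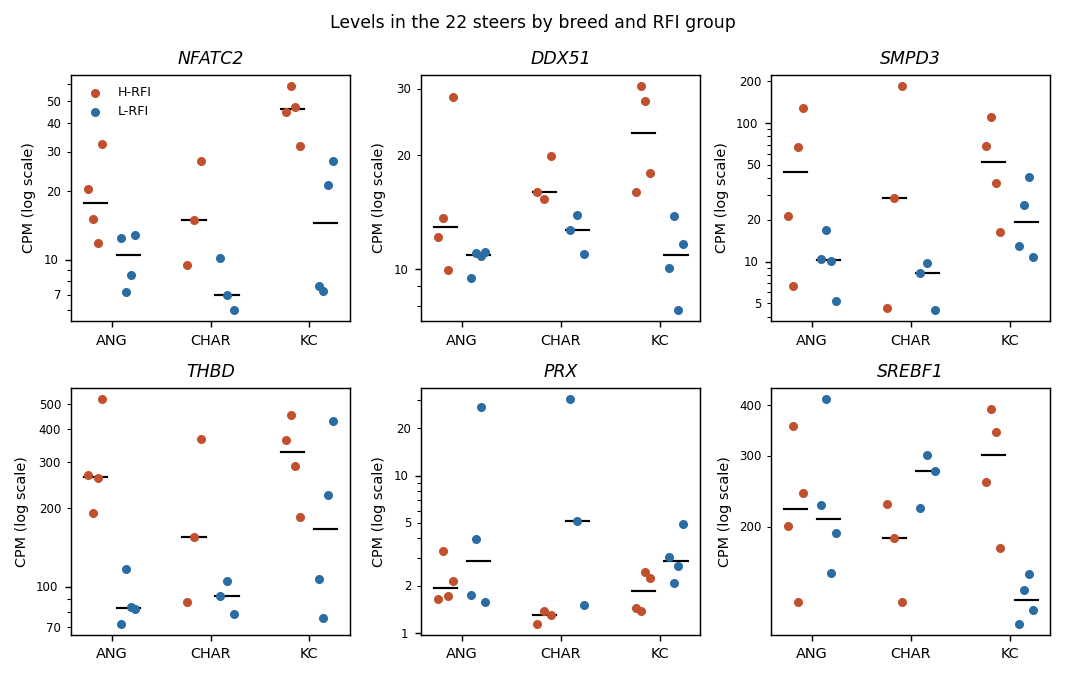
Each point is the level of a gene in 1 steer in CPM on a log axis, with H-RFI steers in red, L-RFI steers in blue and a bar at the median of each breed and RFI group. DDX51 and NFATC2 are low in nearly all L-RFI steers, PRX is high in the ANG steer F24 and the CHAR steer F33, and SREBF1 separates the groups in KC alone.

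SMPD3, the neutral sphingomyelinase that splits sphingomyelin into ceramide, had the most negative log2FC of the named genes. It was at 4.604, 36.7 and 186 CPM (lowest, median and highest) in H-RFI and 4.45, 10.4 and 40.5 CPM in L-RFI steers. The groups overlapped in each breed, since the H-RFI steers F36 of CHAR (4.604 CPM), F21 of ANG (6.66 CPM) and F9 of KC (16.3 CPM) were as low as L-RFI steers. The pooled log2FC was -2.24 ± 0.54 (SE, adjusted p = 0.133), with values of -1.37 in KC, -2.40 in ANG and -3.27 in CHAR. The exact permutation test of the single gene gave p = 0.0115 (2-sided, labels permuted within breeds), but the study called SMPD3 in all 3 breeds, so that no steer is independent of its choice. Without single steers the log2FC ran from -2.44 to -1.71. SMPD3 lies in a stretch that it shares with PRMT7 and other genes in the reference.

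Genes of clotting, complement and inflammation lay mostly lower. Of 31 on the list, 8 could be tested, of which 4 were lower and 1 higher at an unadjusted p under 0.05, where 8.07% and 7.03% of all genes were, and their median log2FC was -0.81. The study called all 8, 7 of them in 1 breed, and in the steers of the other breeds 5 of those 7 had the same direction and 1, THBD, was at an unadjusted p under 0.05. Among the 54 list members tested, all called by the study, 20 were lower and 8 higher at that limit in the pooled contrast. THBD, the thrombin receptor of the vessel wall, was at 87.4, 267 and 523 CPM (lowest, median and highest) in H-RFI and 72.2, 91.7 and 432 CPM in L-RFI steers, with a log2FC of -1.19 ± 0.29 (SE, adjusted p = 0.133). In ANG all 4 L-RFI steers, at 72.2 to 117 CPM, lay below all 4 H-RFI steers, whereas the KC steer F16 was at 432 CPM. PLAU, the protease that activates plasminogen, had a log2FC of -1.20 ± 0.31 (SE) with medians of 52.5 and 21.4 CPM. TNFAIP6, which binds hyaluronan in inflamed tissue, and HAS2, which makes hyaluronan, had log2FCs of -1.25 ± 0.41 and -0.76 ± 0.24 (SE). CFB, a component of the alternative pathway of complement, had a log2FC of -1.06 ± 0.33 (SE), with -1.79 in ANG and -0.26 in KC.

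THBD, TNFAIP6, HAS2 and CFB, which the study called in ANG, and PLAU, which it called in ANG and CHAR, had larger values in ANG and CHAR than in KC, which is not independent of that choice. On the list of extracellular matrix genes, 4 of 46 could be tested, and HAS2 and THBS2 (log2FC -0.43 ± 0.15, SE) were lower at an unadjusted p under 0.05, where 8.07% of all genes were. Of the 54 members of any list, 20 were lower at that limit. In the steers outside the breed in which the study called them, 0 of the 4 were at an unadjusted p under 0.05 in the same direction. ARC, an early response gene, was at 0.711 to 12.7 CPM in H-RFI and 0.109 to 2.45 CPM in L-RFI steers, with a log2FC of -1.35 ± 0.38 (SE, adjusted p = 0.162). The study called ARC in KC, and without KC its log2FC was -0.72 (quasi-likelihood test, unadjusted p = 0.119). DUSP4, which switches off MAP kinases, showed no common value, at -2.28 in KC but 0.30 in ANG and 0.44 in CHAR. MT1A, a metallothionein that glucocorticoids and zinc induce, had a log2FC of -1.69 ± 0.53 (SE) at low levels, with 1 L-RFI steer at 0 counts. Its exact permutation test gave p = 0.0999. Of the ANG H-RFI steers, F32 was at 7.83 CPM and the others at 0.127 to 1.12 CPM. MT1A too was called by the study in KC, and without KC its log2FC was -1.61 (quasi-likelihood test, unadjusted p = 0.0574).

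Few genes of fat and sterol synthesis could be tested, 3 of 21 and 5 of 29 listed. SREBF1 was at 130, 228 and 392 CPM (lowest, median and highest) in H-RFI and 115, 193 and 415 CPM in L-RFI steers. Its pooled log2FC was -0.23 ± 0.24 (SE, adjusted p = 0.682), made of -1.14 in KC, 0.087 in ANG and 0.55 in CHAR. In KC all 4 L-RFI steers, at 115 to 153 CPM, lay below all 4 H-RFI steers, at 177 to 392 CPM, while in ANG and CHAR the ranges overlapped. ACLY, which makes cytosolic acetyl-CoA from citrate, had a pooled log2FC of -0.17 ± 0.40 (SE, adjusted p = 0.874), with -1.37 in KC, 0.45 in ANG and 0.53 in CHAR. The exact permutation test gave p = 0.402 for SREBF1 and p = 0.430 for ACLY, neither of which shows that the groups were alike.

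All 3 members of the fatty acid synthesis list that could be tested, SREBF1, ACLY and the citrate carrier SLC25A1, had a negative pooled value and a positive one without KC, with medians of -0.23 and 0.28. For SLC25A1 the value without KC combined 0.61 in ANG with -0.56 in CHAR. The study had called all 3 in KC. Of the 5 sterol genes, 4 had a negative pooled value and none of these was at an unadjusted p under 0.05. The study had called these 4 in KC, and without KC all 4 had a positive value, from 0.045 to 0.26. In CHAR alone, AACS and TM7SF2 of these 4 were at -0.16 and -0.13, and LSS and SQLE at 0.051 and 0.0011. The fifth, ABCA1, which exports cholesterol, had 0.40 ± 0.17 (SE, adjusted p = 0.285), with 1.02 in CHAR and -0.076 in ANG. The study called ABCA1 in CHAR, and without CHAR its log2FC was 0.17 (quasi-likelihood test, unadjusted p = 0.388).

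Among genes that govern the release and burning of fat, PDK4, which turns cells from glucose to fatty acids by blocking pyruvate dehydrogenase, was at 265, 603 and 1739 CPM (lowest, median and highest) in H-RFI and 578, 925 and 2501 CPM in L-RFI steers. Its log2FC was 0.58 ± 0.27 (SE, adjusted p = 0.316), with 1.23 in KC, 0.50 in ANG and -0.20 in CHAR, and the exact permutation test gave p = 0.0476. Without the KC L-RFI steer F10 the log2FC was 0.35, and without KC, where the study called the gene, it was 0.20 (unadjusted p = 0.449). The proteins CIDEA, which enlarges lipid droplets, and G0S2, which inhibits the lipase ATGL, had log2FCs of -0.51 ± 0.25 and -0.74 ± 0.39 (SE). Both were negative in every breed, with CIDEA at -1.01 in KC, -0.043 in ANG and -0.46 in CHAR, and G0S2 at -1.58, -0.20 and -0.35. The study called both in KC. Without KC the log2FC was -0.22 for CIDEA and -0.27 for G0S2 (quasi-likelihood test, unadjusted p = 0.497 and 0.565). PM20D1, an enzyme that joins fatty acids to amino acids, stood at 0.65 ± 0.25 (SE) pooled and, without ANG, where the study called it, at 0.40 ± 0.35 (SE, unadjusted p = 0.261). BMP7, a growth factor for fat cell precursors, had -0.69 ± 0.32 (SE), carried by -1.45 in ANG, where the study called it. DLK1, which marks preadipocytes, did not pass the CPM filter and was not tested.

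Markers of cell types other than adipocytes were examined by list. Of 13 marker lists, 8 held an identifier, and their summed levels were compared by the exact permutation test within breeds, unadjusted over the 8 sums. The Schwann cell genes PRX and NFASC, 2 of 9 listed, summed to 3.98, 8.66 and 11.9 CPM (lowest, median and highest) in H-RFI and 7.06, 11.99 and 44.4 CPM in L-RFI steers (p = 0.0217 by the exact test). PRX, which maintains myelin, had a log2FC of 1.88 ± 0.53 (SE, adjusted p = 0.162), and NFASC, an adhesion protein of axons and glia, 0.47 ± 0.22 (SE). The high levels of PRX rested on few steers, since F33 of CHAR was at 30.6 CPM and F24 of ANG at 27.1 CPM. The other 9 L-RFI steers were at 1.52 to 5.14 CPM and the H-RFI steers at 1.15 to 3.33 CPM, and without 1 steer the log2FC of PRX ran from 1.28 to 2.01. The study called both genes in CHAR, and without CHAR the log2FC was 1.37 for PRX (unadjusted p = 0.0170) and 0.16 for NFASC (unadjusted p = 0.472). The part of nerve in the samples was not tested.

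The mast cell genes TPSB2, a tryptase, and HDC, which makes histamine, were 2 of 8 listed and both lower in L-RFI steers, with log2FCs of -1.11 ± 0.34 and -1.19 ± 0.41 (SE). Their sum was at 6.40, 31.1 and 46.6 CPM (lowest, median and highest) in H-RFI and 5.31, 7.71 and 30.1 CPM in L-RFI steers (exact permutation test, p = 0.00788). All 11 L-RFI steers lay below the H-RFI median of TPSB2, 27.96 CPM. The study called both genes in ANG, where the TPSB2 value was -1.54, and it was -1.33 in CHAR and -0.57 in KC. Without ANG the log2FC was -0.86 for TPSB2 (unadjusted p = 0.0525) and -0.81 for HDC (unadjusted p = 0.134). The epithelial gene PERP, 1 of 9 keratinocyte markers, was at 0.576 to 6.35 CPM in H-RFI and 0.267 to 7.01 CPM in L-RFI steers (exact permutation test of its sum, p = 0.0190). The study called PERP in ANG, where its log2FC was -2.68, and it was 0.44 in KC and -0.33 without ANG (unadjusted p = 0.574). PI16, which marks fibroblast progenitors, made up most of a sum with DLK1 (exact permutation test, p = 0.133).

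The striated muscle genes NEB and TTN, 2 of 15 listed, summed to 56.9 to 274 CPM in H-RFI and 56.3 to 2506 CPM in L-RFI steers (exact permutation test, p = 0.410). The highest was F11 of KC, with NEB at 200.0 CPM against 0.959 to 7.30 CPM in the other L-RFI steers, and leaving out single steers took the log2FC of NEB from 1.93 to between 0.49 and 2.25. Smooth muscle genes, 5 of 10, summed to 122 to 514 CPM in H-RFI and 174 to 890 CPM in L-RFI steers (exact permutation test, p = 0.363). The exact tests gave p = 0.199 for the macrophage gene CLEC10A and p = 0.271 for the immunoglobulin gene IGHM, each the sole named member of its list. Their parts in the results on other genes were not tested.

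**Figure D4:**
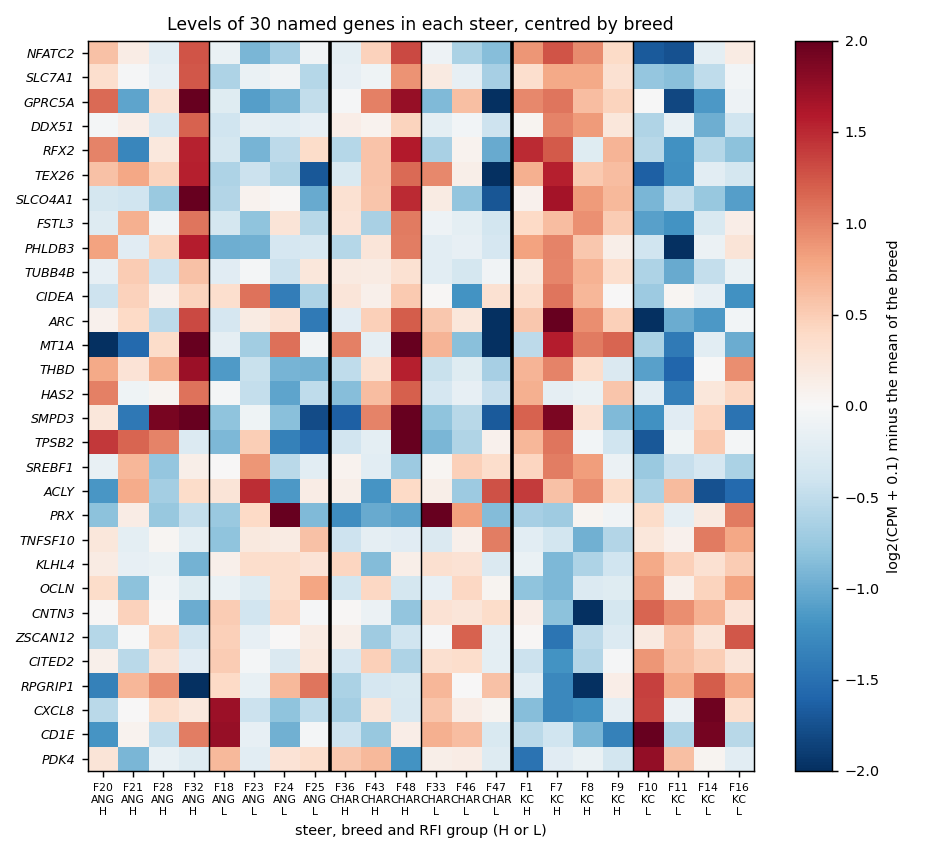
Colour gives log2(CPM + 0.1) of 30 named genes in each of the 22 steers after subtraction of the mean of the breed, with thin lines between RFI groups and thick lines between breeds. The H-RFI steers F32, F48 and F7 are high in most of the upper rows, and PRX is high in F24 and F33. F28 and F36 are near the mean of their breed in many of the upper rows, but in SMPD3 F28 is high and F36 low.

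Whether a difference found in 1 breed was present in the others was read from steers that the first breed did not share. The genes that the study called lower in L-RFI steers of KC, of which 97 were tested, were lower in 73 cases (75.3%) in the 14 ANG and CHAR steers, with a median log2FC of -0.35, where 49.5% of all genes were. At an unadjusted p under 0.05 in that direction there were 23 of the 97 (23.7%) against 3.01% of all genes. The 71 genes it called higher in KC were higher in 49 cases (69.0%), where 50.55% of all genes were, but with a median of 0.11. Of these 71, 1 (1.41%) was at an unadjusted p under 0.05 in that direction, against 1.68% of all genes. The difference between the lower and higher lists was not tested.

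The 42 genes called lower in ANG were lower in 37 cases (88.1%) in the CHAR and KC steers, where 49.8% of all genes were. Their median log2FC was -0.45. Of them 9 (21.4%) were at an unadjusted p under 0.05, against 8.51% of all genes lower and 8.83% higher in that fit. Of the genes called in CHAR, 12 of 22 lower and 7 of 17 higher ones kept their direction in the ANG and KC steers. Over all genes 48.5% were lower and 51.5% higher there. At an unadjusted p under 0.05 in that direction there were 4 and 2, where the shares over all genes were 7.85% and 6.89%. Across all genes, the log2FCs of separate breeds correlated weakly, with Pearson's r of 0.080 between ANG and CHAR, 0.17 between ANG and KC and 0.23 between CHAR and KC. These describe 13606 genes, which are not independent replicates.

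The number of genes called depended on single H-RFI steers. With F28 left out, 636 genes were past an FDR of 0.1 (4.67%), 392 of them lower in L-RFI steers, and 18 of the 20 genes above were among them, all but CXCL8 (adjusted p = 0.111) and CD1E (adjusted p = 0.151). NFATC2 then had an adjusted p of 0.0608, and so did SLC7A1, GPRC5A, DDX51, RFX2, SLCO4A1, FSTL3 and TUBB4B, while SMPD3 and THBD had 0.0700. Their log2FCs moved little, as for NFATC2 from -1.23 to -1.31 and for SMPD3 from -2.24 to -2.20. Without F43 of CHAR there were 91 genes and without F36 of CHAR 21, and 15 of the 22 fits without 1 steer had 0. F28 was at or below the highest ANG L-RFI steer in 7 of the 10 lower genes, F36 below that of CHAR in 6, and F32, F48, F1, F7 and F8 in 0. RFIfat of F28 was 1.64 kg, the highest of the ANG steers. Choosing which steer to leave out rested on these counts, so they describe how far the call depends on each steer.

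**Figure D5:**
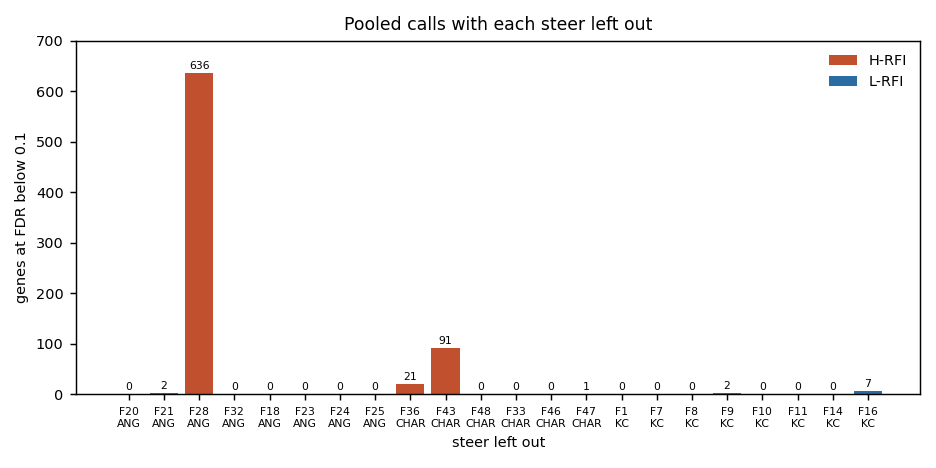
Each bar is the number of genes at an FDR below 0.1 in the pooled quasi-likelihood fit with the steer under it left out, in red for H-RFI and blue for L-RFI steers. The count is 636 without F28, 91 without F43, 21 without F36 and at most 7 without any other steer.

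It depended on the breeds as well. Without ANG, 81 genes passed an FDR of 0.1 (0.595%), among them NFATC2, DDX51, RFX2, SLCO4A1 and TUBB4B of the lower genes and TNFSF10 of the higher genes. Without CHAR there were 2, of which TEX26 was named (adjusted p = 0.0522). Without KC there were 0, the smallest adjusted p was 0.998, and 637 genes were at an unadjusted p under 0.05. In the fit with a term for each breed and RFI group, the contrast inside KC held 2815 genes at an unadjusted p under 0.05, that inside ANG 624 and that inside CHAR 599. At an FDR below 0.1 there were 862, 0 and 1. This fit used the bias-corrected form of edgeR's quasi-likelihood test, unlike the pooled fits above. By that form the pooled contrast had 0 genes at an FDR below 0.1 and 2120 at an unadjusted p under 0.05.

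A breed by RFI interaction passed an FDR of 0.1 for 1 gene (0.00735%), KCNMB1, the beta subunit of the calcium-activated potassium channel of smooth muscle (adjusted p = 0.0772). The count fell to 0 in 15 of the 22 fits without 1 steer and with no CPM filter. KCNMB1 shares its position with KCNIP1 in the reference. KCNMB1 was at 18.2 to 21.4 CPM in the 3 CHAR L-RFI steers and 6.91 to 9.43 CPM in the 3 CHAR H-RFI steers, so that these groups did not overlap. The log2FC was 1.35 in CHAR, 0.052 in ANG and -0.42 in KC. ACTA2, the actin of smooth muscle, had 1.46 in CHAR, -0.043 in ANG and -0.43 in KC, and the smooth muscle sum was highest in the CHAR steer F33. The part of smooth muscle in the value of KCNMB1 was not tested. LGR5, DUSP4 and HPGD, the next genes by interaction p with ACTA2, did not pass the limit.

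Within groups of the same breed and RFI class, 0 genes followed RFIfat in kg at an FDR below 0.1 by the quasi-likelihood test, and 1317 were at an unadjusted p under 0.05 (9.68%). Among the 10 lower genes, the slopes ran from -1.03 log2 units per kg for SLCO4A1 to -0.31 for DDX51, with adjusted p from 0.455 to 0.729. These slopes point to lower levels at higher RFIfat, whereas the pooled contrast had lower levels in L-RFI steers, and none passed the limit.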

How the data were processed

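RNA of the 22 backfat samples was depleted of ribosomal RNA and sequenced as stranded, paired 100 bp reads. The authors trimmed reads to a minimum quality of 20 and a minimum of 75 bp, mapped the rest to UMD3.1 with TopHat2 (2.0.9), sorted them with SAMtools (1.1) and counted reads per gene with HTSeq (0.6.1), and deposited the raw counts of 24616 Ensembl genes with 5 summary lines, which were left out of library sizes. The strand setting and the annotation release are not given in the sources used here. No coordinates or sequences are given.

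L-RFI was compared with H-RFI by edgeR's quasi-likelihood test (edgeR 4.0.16, R 4.3.3) with TMM normalization and the model breed + RFI, restricted to genes that exceeded 1 CPM in 11 or more steers, with Benjamini-Hochberg adjustment and an FDR limit of 0.1. The SE is the absolute log2FC over the root of the F statistic. Levels are CPM on TMM-scaled library sizes, and summed markers are CPM on total counts. Exact permutation tests took all 98000 arrangements of the labels within breeds on log2(CPM + 0.01). DESeq2 (1.42.0), limma voom (3.58.1) and other settings were alternatives. The covariate of ambiguous reads, voom and the bias-corrected quasi-likelihood test of the pooled contrast were chosen after seeing the data. Values inside single breeds come from the fit with a term for each breed and RFI group, by the bias-corrected test. The fits were checked on simulated data.

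The named genes were up to 10 with the smallest p in each direction, the member of each gene list with the smallest p, 5 with the smallest interaction p, and SMPD3, SREBF1, ACLY, PDK4 and DLK1. Other list members were named with their list. Names that are only locus numbers, and some genes not reported here, were left out of the named genes and lists. The comparison, gene lists and named genes were chosen with earlier results of these data known. Symbols come from the study's lists of genes differing within a breed (242 identifiers), whose fold changes and p-values were not used. Overlap between genes was looked up in RefSeq of another build. Tables were made in python 3.11.15 with pandas 2.3.3 and numpy 2.4.6. Counts of 3 (0.241 to 0.373 CPM) give the floor, which covers counting error only. Which steers share a sire is not given in the sources used here.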

Additional observations from a re-analysis of the deposited data

Results flagged for a closer look

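KCNMB1 was flagged because its RFI difference differed between the breeds (interaction adjusted p = 0.0772 by edgeR's quasi-likelihood test), with CHAR L-RFI steers above all other groups. In 11 of 176 groups of 4 steers (6.25%), 1 steer lay far from the other 3 by Dixon's criterion (critical value 0.829), where chance flags about 1 in 20 groups. The high ones were TEX26 (7.72 CPM) and ARC (12.7 CPM) in the KC H-RFI steer F7, SLCO4A1 (52.6 CPM) and MT1A (7.83 CPM) in the ANG H-RFI steer F32, PRX (27.1 CPM) in the ANG L-RFI steer F24, CXCL8 (4.59 CPM) and CD1E (8.36 CPM) in the ANG L-RFI steer F18, and NEB (200.0 CPM) and LGR5 (2.63 CPM) in the KC L-RFI steer F11. The low ones were DDX51 (9.46 CPM) in the ANG L-RFI steer F18 and HPGD (28.9 CPM) in the ANG L-RFI steer F25. Groups of 3 CHAR steers were not checked.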

How the results depend on the processing

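The 0 genes at an FDR below 0.1 became 226 by the likelihood ratio test, 448 by DESeq2, 81 without ANG, 2 without CHAR and 1 with RFIfat in kg as the regressor, and 0 to 636 with single steers left out; it stayed at 0 in the other alternatives run, with 1612 to 2457 genes at an unadjusted p under 0.05 except without KC. With an absolute log2FC of at least 1 as well, 0 became 26, 25, 9 and 1 by the likelihood ratio test, by DESeq2, without ANG and without CHAR, and 0 to 34 with single steers left out. The interaction gave 6 genes by the likelihood ratio test, 0 with no CPM filter and 0 to 3 with single steers left out, and the slope 37 by the likelihood ratio test and 0 to 30 with single steers left out. The cause was not tested.

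Of 1618 values of the 44 named genes under alternatives, 16 turned their sign, and none of the 20 genes with the smallest p did. Without KC these were SLC25A1 (log2FC 0.11), CLEC10A (-0.24), DUSP4 (0.36), HPGD (-0.49), SREBF1 (0.28) and ACLY (0.48). With the share of reads on genes as a covariate they were SLC25A1 (0.13), HPGD (-0.094) and ACLY (0.29). Without CHAR they were KCNMB1 (-0.18) and ACTA2 (-0.23), and without ANG LGR5 (1.15). With 1 steer left out they were LGR5 without the ANG L-RFI steers F18 (0.027), F23 (0.077) or F25 (0.020), over a range of -0.37 to 0.077 for all steers left out, and HPGD without the KC L-RFI steer F10 (-0.040), over a range of -0.040 to 0.25. No paired analysis was possible because the labels number every steer separately. At 8033008 to 12426133 counts a library, genes near 1 CPM rest on about 10 counts.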
